A study of Mus musculus with 6 samples.

Results

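The olfactory receptor (OR) genes with the symbols *Olfr161* to *Olfr209* were followed in single cells of the mouse main olfactory epithelium (MOE). They were taken by symbol only, as every *Olfr* gene in this range of numbers without a suffix, and 38 of the 1116 *Olfr* genes without a suffix in the count tables fell in it. A mature olfactory sensory neuron (OSN) was a cell with at least 10 UMIs, or counted RNA molecules, of the mature OSN gene *Omp* and more UMIs of *Omp* than of the immature OSN gene *Gap43*. A mature OSN was said to choose the OR with the most UMIs in it, if that OR had at least 3 UMIs and no tie. By this rule 163 of 5003 choosing cells chose a receptor of this range.

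The 6 libraries hold 1 MOE preparation each. The 2 swap libraries carry the Cbx*/* genotype with a Cre allele and come from mice in which Cre replaces *Cbx1* coding sequence with that of *Cbx5*, so that HP1α is made in place of HP1β. Control replicate 1 is labelled WT with the Cre allele, and control replicate 2 carries Cbx*/* without the Cre label, so the 2 controls differ in genotype. The tetOP2 library carries the tetOP2iresGFP transgene, which expresses the OR gene *Olfr17* (P2), with gg8-tTA, the driver of that transgene in OSNs, and the gg8tTA control library carries gg8-tTA alone. The labels used here give no age, and nothing states whether a library pools several animals. The study's methods call the replicates biological, and the tests take the library as the replicate. Tests over many genes share their estimate of the spread between libraries across genes. Their very small p-values therefore need not show a gene's own spread between libraries, nor the sampling of few cells within a library.

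In the MOE each OSN transcribes 1 OR allele out of a very large repertoire, and OSNs that choose the same OR send their axons to the same glomeruli of the olfactory bulb. OR genes lie in clusters on many chromosomes, and most are choosable only within a zone along the dorsomedial to ventrolateral axis of the MOE. Silent OR genes are packed into heterochromatin marked by trimethylation of histone H3 lysine 9, the mark that HP1 proteins bind.

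All 35 members with a GENCODE M21 entry lay on chromosome 16 (GRCm38, the build the labels call mm10), 30 on the minus and 5 on the plus strand. They formed 3 loci. *Olfr161* stood alone at chr16:3591042-3599323. A second locus, chr16:19284104-19629916, held 8 genes from *Olfr164* to *Olfr171*, and the third locus, chr16:58759544-59363993, held 26 genes from *Olfr172* to *Olfr209*. RefSeq synonyms put *Olfr164* and *Olfr165* in family MOR279, *Olfr166* in MOR270, *Olfr168* in MOR271, *Olfr167* in MOR272 and *Olfr169* to *Olfr171* in MOR273. In the third locus 10 genes belonged to MOR182, 8 to MOR183 and 7 to MOR184. *Olfr176*, *Olfr207* and *Olfr208* had no entry under these symbols, and *Olfr192* and *Olfr197* are annotated as polymorphic pseudogenes.

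Many neighbours were close copies in coding sequence, which can limit how surely a read from it is given to 1 gene. The coding sequences of *Olfr170* and *Olfr171* were 97.1% identical, those of *Olfr199* and *Olfr201* 96.9%, and those of *Olfr204* and *Olfr205* 94.2%. The last 500 bases of the longest coding transcripts were less alike. There the best local alignment held 59 identical bases for *Olfr199* and *Olfr201* and 18 for *Olfr204* and *Olfr205*. For *Olfr170* and *Olfr171* no such value was available, and where the reads fell was not tested. Counts of such genes are uncertain where the deposited counting could not tell the copies apart, and the gene span of *Olfr180* covers *Olfr181* on the same strand. The stretches below are 90 bases of coding exon each from the minus strand of GRCm38 (GENCODE M21), for some receptors named below. Each was picked for the most differing bases within its set, up to a limit of 18, so it is not a typical stretch. Capitals mark the bases that differ within a set, and the first set, of family MOR273, has 10 such bases.
Olfr169 (chr16:19565954-19566043): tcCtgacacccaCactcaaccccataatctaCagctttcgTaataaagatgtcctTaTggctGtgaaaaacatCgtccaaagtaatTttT
Olfr170 (chr16:19605739-19605828): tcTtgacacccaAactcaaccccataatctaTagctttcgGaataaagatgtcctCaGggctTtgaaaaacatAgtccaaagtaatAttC
Olfr171 (chr16:19624171-19624260): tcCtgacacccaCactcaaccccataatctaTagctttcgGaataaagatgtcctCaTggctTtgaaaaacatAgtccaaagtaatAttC

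The pair *Olfr199* and *Olfr201* differed at 7 of 90 bases in the stretch with most differences.
Olfr199 (chr16:59215972-59216061): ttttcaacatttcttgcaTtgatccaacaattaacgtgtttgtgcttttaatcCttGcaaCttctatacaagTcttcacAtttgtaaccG
Olfr201 (chr16:59269026-59269115): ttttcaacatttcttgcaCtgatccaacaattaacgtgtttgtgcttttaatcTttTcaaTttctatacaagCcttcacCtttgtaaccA

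Among *Olfr204*, *Olfr205* and *Olfr206* the stretch shown had 18 differing bases, the limit set, most of them in *Olfr206*.
Olfr204 (chr16:59314908-59314997): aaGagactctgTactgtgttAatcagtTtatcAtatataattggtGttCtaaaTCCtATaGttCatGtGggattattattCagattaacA
Olfr205 (chr16:59329010-59329099): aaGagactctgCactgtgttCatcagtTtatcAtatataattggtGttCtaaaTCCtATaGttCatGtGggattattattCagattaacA
Olfr206 (chr16:59345202-59345291): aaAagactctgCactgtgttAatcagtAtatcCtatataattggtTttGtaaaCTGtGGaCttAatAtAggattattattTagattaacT

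The libraries held 32005196 to 63277934 UMIs in all, and 683 to 1309 cells each passed as mature OSNs. Of these OSNs, 87.7% to 94.9% had a chosen OR. *Cbx1*, the gene replaced in swap mice, was at 1.12 and 3.09 CPM (UMIs scaled to the same total in each library) in mature OSNs of swap replicates 1 and 2 and at 81.2 and 142 CPM in those of control replicates 1 and 2. *Cbx5* was at 85.7 and 102 CPM in swap against 19.3 and 42.2 CPM in control. All 8 mature OSN markers examined had UMIs in the cells choosing a member in each library, and each was found in at least 50% of those cells. As a background for free RNA, cells gated as sustentacular, which are support cells and no neurons, chose a member in 0% to 0.619% of cases against 1.45% to 5.27% of all mature OSNs. Only 2.74% to 21.2% of the sustentacular cells chose any OR, and members were 0% to 3.92% of these choices, against 1.53% to 6.01% in mature OSNs. In swap replicate 2 members were a larger part of the sustentacular choices (3.92%, 4 of 102 cells) than of those of mature OSNs (2.84%). At least 1 member UMI was in 1.45% to 13.4% of sustentacular cells and in 3.42% to 15.4% of mature OSNs. In control replicate 2 these were 5.74% and 4.66%, and in swap replicate 2 they were 3.56% and 3.475%, so the sustentacular value was the higher in both. At most 13 cell barcodes were shared by any 2 libraries.

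Of the 38 receptors, 34 were chosen by at least 1 mature OSN, and the median was 3 cells per receptor, as it was for the other receptors. *Olfr164* was chosen by 17 cells and *Olfr201* by 16, together 20.3% of the 163 cells. They were followed by *Olfr166* with 13 cells, *Olfr206* with 11, and *Olfr169* and *Olfr204* with 8 each. *Olfr176*, *Olfr187*, *Olfr207* and *Olfr208* were chosen by no mature OSN, and *Olfr207* and *Olfr208* had 0 UMIs in all kept cells. The second locus gave 54 of the cells and the third 105.

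**Figure D1:**
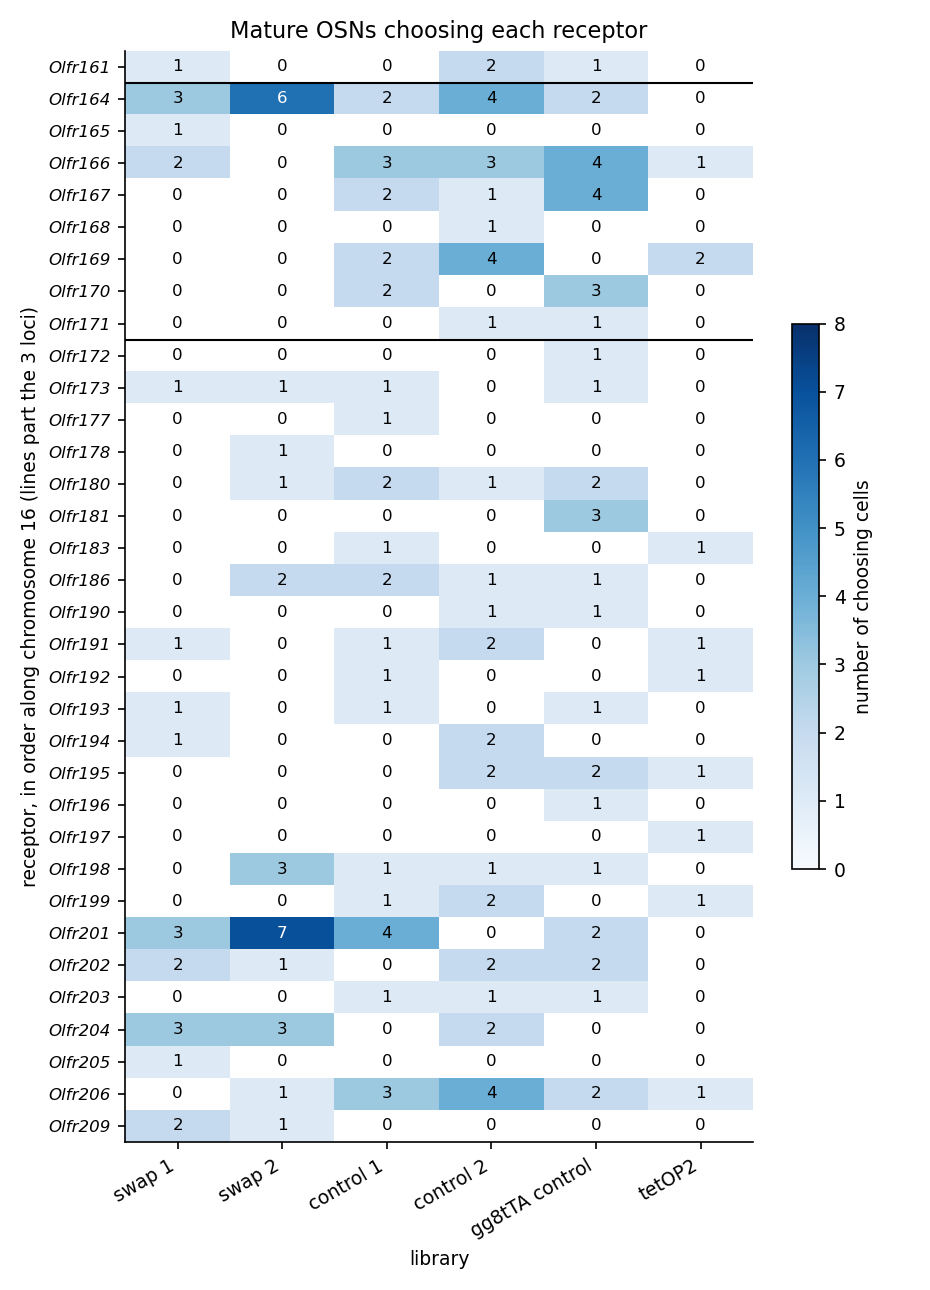
Number of mature OSNs (colour and digits) that chose each of the 34 chosen receptors, in order along chromosome 16 (rows), in each of the 6 libraries (columns), with horizontal lines between the 3 loci. *Olfr167* to *Olfr171* stand at 0 in both swap libraries, and *Olfr201* has 7 cells in swap replicate 2 and 0 in control replicate 2.

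Choice of the members was exclusive in nearly all cells. A second OR with at least 3 UMIs was present in 5 of the 163 cells, against 317 of the 4840 cells that chose another receptor. Of the 5 cells, 3 came from the 10 member cells of tetOP2, and in 1 of those the second OR was also a member. That cell chose *Olfr192* and had 3 UMIs of *Olfr190*, whose coding sequence is 96.5% identical. The other tetOP2 cells chose *Olfr169* and *Olfr195*, each with 3 UMIs of *Olfr17*, the OR of that library's transgene. Of all UMIs of these receptors in mature OSNs, 97.1% to 99.8% per library lay in cells that chose that receptor. The mature OSNs that chose no member thus held almost none of this RNA, although 10.7% of them in the gg8tTA control library had at least 1 UMI of a member.

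The first question of the design was whether swap mice chose these receptors as often as control mice. The share of choosing cells with a member was 3.28% in swap replicate 1 (22 of 671 cells, 95% exact binomial interval 2.07% to 4.92%) and 2.84% in swap replicate 2 (27 of 950, 1.88% to 4.11%). In control replicate 1 it was 3.26% (31 of 950, 2.23% to 4.60%), and in control replicate 2 it was 3.14% (37 of 1180, 2.22% to 4.30%). Intervals here and below cover counting error only. Swap and control libraries overlapped, and the means of 3.06% ± 0.309 (SD, n = 2) and 3.2% ± 0.0902 (SD, n = 2) differed by -0.139 percentage points (two-sided exact permutation test, p = 1.0, where 2 against 2 libraries allow no p below 0.33). With a gate of at least 3 UMIs of *Omp* the difference turned to 0.243 points, and without swap replicate 2 to 0.0793 points.

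The receptors that made up this share were not all the same. Of the members, 14 were chosen in both genotypes, 4 in swap only, 12 in control only and 8 in neither, or 36.8%, 10.5%, 31.6% and 21.1%. Among the other receptors these parts were 39.0%, 8.26%, 29.9% and 22.9%. Of the 9 members with at least 5 choosing cells in swap and control together, 2 had both swap shares below both control shares, *Olfr169* and *Olfr206*, and 3 had both above, *Olfr164*, *Olfr204* and *Olfr201*. Over all 299 receptors with that many cells, 21.7% lay below and 27.8% above in this sense, so the members' counts stood near the background. The test of the cell numbers across receptors, edgeR's quasi-likelihood test, kept no member after its filter on low counts. Without that filter it tested 30 members and called 0 at an adjusted p below 0.05, with 0 at an unadjusted p below 0.05, where 0.116% of all 861 receptors tested were called. DESeq2 also called 0 of 30.

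The RNA summed over all mature OSNs of a library was tested next. Of the 38 members, 19 passed the filter, and 0 were called higher and 0 lower in swap at the threshold of 0.05 for adjusted p and of 0.58 for the size of the log2 fold change. The called share was 0% in either direction among all 13372 genes tested, and 0% among the 576 receptors tested. For *Cbx1* itself the same edgeR fit gave a log2 difference of -5.71 with a standard error of 0.62 (adjusted p = 0.182). At an unadjusted p below 0.05 stood 5 of the 19 members, 165 of the 557 other receptors and 290 of all genes. DESeq2 called 5 of 30 members, 1 of them higher and 4 lower in swap, where it called 4.96% of 806 receptors higher and 15.3% lower. Without control replicate 1 edgeR called 8 of 26 members tested, 2 higher and 6 lower in swap, where it called 8.29% of 736 receptors higher and 25% lower. Without control replicate 2 it called 11 of 26, 3 higher and 8 lower, where it called 11% of 712 receptors higher and 26.1% lower, in both fits with the lone control library assumed to vary like the swap libraries.

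Those 5 members each had 0 UMIs in both libraries of a genotype, so their differences are bounds against a floor of 3 UMIs per library. These bounds cover the UMIs of the cells sampled and not the sampling of cells. *Olfr167* had 0 and 0 UMIs in swap against 462 and 320 in control replicates 1 and 2, at least 104-fold lower. *Olfr169* had 0 and 0 against 162 and 734 UMIs, at least 100-fold lower in swap. This RNA came from few cells, since 3 control cells chose *Olfr167* and 6 chose *Olfr169*. *Olfr199* had 0 and 0 against 104 and 210 UMIs, at least 37.5-fold lower. *Olfr203* had 0 and 0 against 97 and 43 UMIs, at least 19.3-fold lower. Control cells that chose *Olfr199* numbered 3, and those that chose *Olfr203* numbered 2. A receptor chosen by 0 cells can have a share up to 0.548% and 0.388% in swap replicates 1 and 2 (exact interval). The control shares of *Olfr167*, *Olfr169*, *Olfr199* and *Olfr203*, from 0.0847% to 0.339%, lay below these limits, so no fold is bounded for cell shares. *Olfr209*, in contrast, had 608 and 550 UMIs in swap replicates 1 and 2 and 0 and 0 in control, at least 254-fold higher, and rested on 2 and 1 cells.

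Within the second locus the families lay on different sides of control. The 5 genes from *Olfr167* to *Olfr171*, which stand next to each other at chr16:19509558-19629916, were chosen by 0 of 671 cells of swap replicate 1, which allows a share of up to 0.447% (3 cells) or 0.548% (exact interval), and by 0 of 950 cells of swap replicate 2, which allows up to 0.316% or 0.388%. In control replicates 1 and 2 they were chosen by 6 and 7 cells, 0.632% (exact interval 0.232% to 1.37%) and 0.593% (0.239% to 1.22%). The gg8tTA control library had 8 such cells, 1.34% (0.578% to 2.61%), and tetOP2 had 2. The intervals of swap and control overlapped, and this stretch was picked out after the values were seen, so no test was made.

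The neighbouring MOR279 genes *Olfr164* and *Olfr165* lay the other way. They took 0.596% and 0.632% of choosing cells in swap replicates 1 and 2 against 0.211% and 0.339% in control replicates 1 and 2. *Olfr164* alone was chosen by 3 and 6 cells in swap and by 2 and 4 in control. *Olfr166*, which lies between these genes and *Olfr167*, was chosen by 2 and 0 cells in swap and 3 and 3 in control, and its shares overlapped (0.298% and 0% against 0.316% and 0.254%). Over the whole locus the shares were 0.894% and 0.632% in swap and 1.16% and 1.19% in control, with no overlap.

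In the third locus the shares were 2.24% and 2.21% in swap and 2.11% and 1.78% in control. Family MOR182 took 1.79% and 1.68% of choosing cells in swap against 1.05% and 1.19% in control, again without overlap. MOR183 lay below, with 0.298% and 0.211% in swap against 0.526% and 0.339% in control. MOR184, at 0.149% and 0.316% in swap and 0.421% and 0.254% in control, overlapped. Of all 157 OR families with at least 5 choosing cells in these 4 libraries, 22.9% lay below control without overlap and 25.5% above, so such a separation was common.

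MOR182 was itself mixed. *Olfr201* was chosen by 3 and 7 cells in swap replicates 1 and 2 and by 4 and 0 in control replicates 1 and 2, so most of its excess came from swap replicate 2 and the absence in control replicate 2. *Olfr204* had 3 and 3 cells in swap and 0 and 2 in control. *Olfr206*, which is 91.3% identical to *Olfr204* in coding sequence, had 0 and 1 in swap and 3 and 4 in control. *Olfr199*, the near copy of *Olfr201* shown above, had 0 and 0 in swap and 1 and 2 in control. *Olfr202* had 2 and 1 cells in swap and 0 and 2 in control, *Olfr198* had 0 and 3 against 1 and 1, and *Olfr186* of family MOR183 had 0 and 2 against 2 and 1, and all 3 overlapped. *Olfr180* of family MOR184 had 0 and 1 cells in swap and 2 and 1 in control.

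Immature OSNs, cells with at least 10 UMIs of *Gap43* and more of *Gap43* than of *Omp*, gave a second set of cells from the same libraries, and their shares were added after the data were seen. Among 2037 choosing immature OSNs, 82 chose a member, and 31 members were chosen. *Olfr167* to *Olfr171* were again chosen by 0 of 503 and 0 of 259 cells in swap replicates 1 and 2, which allows up to 0.596% and 1.16% (3 cells) or 0.731% and 1.41% (exact interval), against 8 of 532 (1.5%, exact interval 0.651% to 2.94%) and 3 of 219 (1.37%, 0.283% to 3.95%) in control replicates 1 and 2. MOR182 again lay higher in swap, at 1.99% and 1.54% against 0.752% and 0.457%, and the whole second locus again lower, at 0.398% and 1.16% against 1.88% and 1.83%. For MOR182 these were 10 and 4 cells in swap against 4 and 1 in control. How many families separate this way in immature OSNs was not counted. In mature OSNs 22.9% of families lay below and 25.5% above, so such a separation was common there. These cells share their libraries with the mature OSNs, so they are no further replicates.

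All members together took 3.98% and 3.47% of choosing immature OSNs in swap replicates 1 and 2 and 4.14% and 4.57% in control replicates 1 and 2. These shares did not overlap, unlike those of mature OSNs, but their exact intervals did (2.45% to 6.07%, 1.60% to 6.49%, 2.61% to 6.19% and 2.21% to 8.24%). The other loci and families overlapped or were at 0 in immature OSNs. MOR279 was chosen by 2 and 0 cells in swap and by 0 and 0 in control, and the third locus took 3.58% and 2.32% in swap against 2.26% and 2.74% in control, which overlapped. *Olfr209*, absent from mature OSNs of control mice, was chosen by 2 immature OSNs of control replicate 1 and 4 of swap replicate 1. *Olfr199* was chosen by 2 immature OSNs of swap replicate 1, and *Olfr187*, chosen by no mature OSN, by 3 immature OSNs in all.

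**Figure D2:**
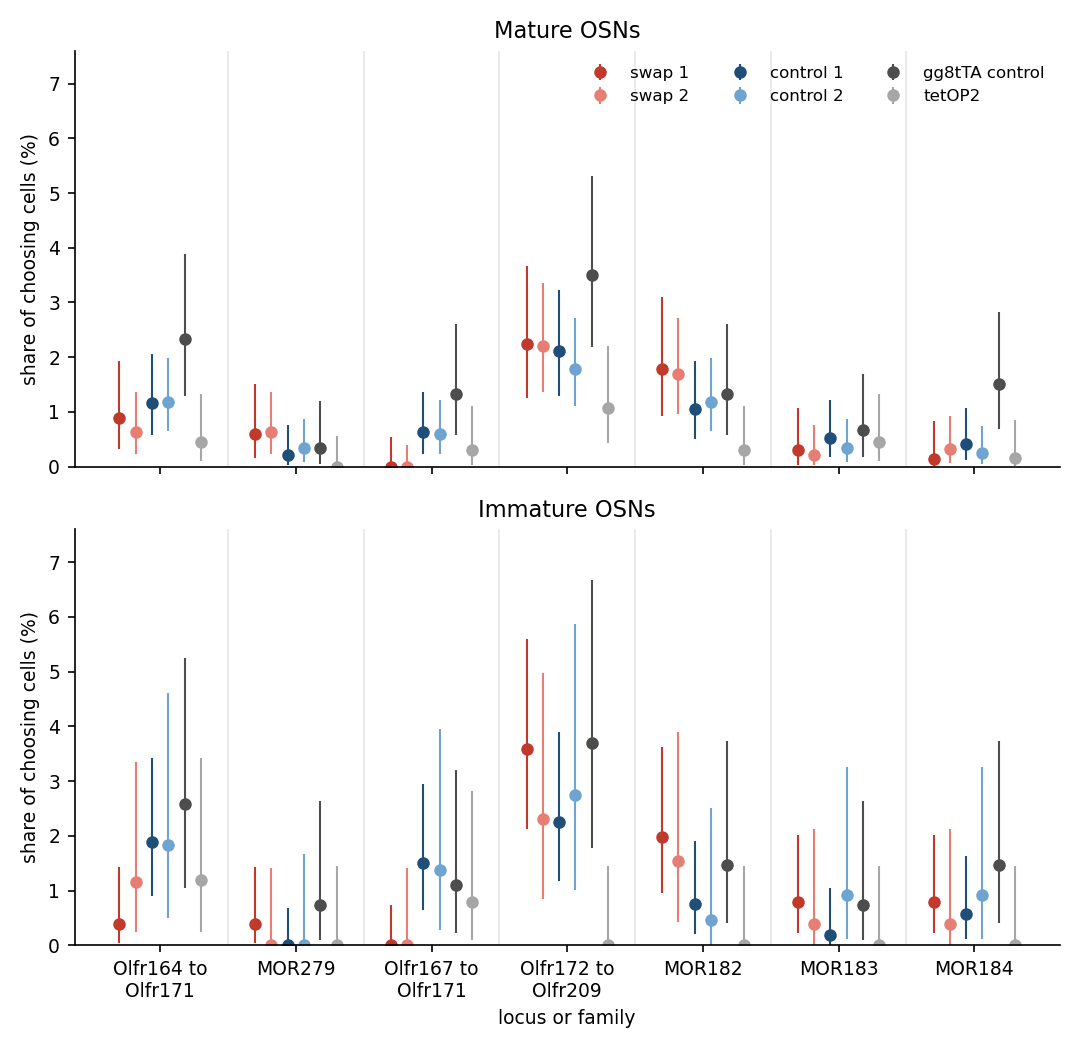
Share of receptor-choosing cells (y axis, %) that chose a locus or family (x axis) in mature OSNs (top) and immature OSNs (bottom), with 1 point per library and bars for the 95% exact binomial interval. *Olfr167* to *Olfr171* are at 0 in both swap libraries in both panels, and MOR182 lies higher in both swap than in both control libraries in both panels.

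The level of the chosen receptor per cell was examined apart from the number of cells. In cells choosing a member the median was 97.0 UMIs of that receptor in swap replicate 1 and 117 in swap replicate 2, and 97.0 and 141 in control replicates 1 and 2. After each cell was thinned at random to 3000 UMIs the medians were 23.5 and 24.0 UMIs in swap and 23.0 and 29.0 in control. The genotypes overlapped, with means of 23.8 ± 0.354 (SD, n = 2) and 26.0 ± 4.24 (SD, n = 2) and a difference of -2.25 UMIs (two-sided exact permutation test, p = 1.0). The difference was 0.0 with predicted doublets kept and 0.75 without control replicate 2. Cells choosing another receptor had lower unthinned medians in the swap and control libraries, of 59.0, 95.0, 69.0 and 103 UMIs in swap replicates 1 and 2 and control replicates 1 and 2, while in tetOP2 the values were 96 and 95. After thinning the other cells had medians of 15, 23, 18 and 22 UMIs in the same order and 26 in tetOP2, above the 20.5 of its member cells. No test of that difference was made.

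**Figure D3:**
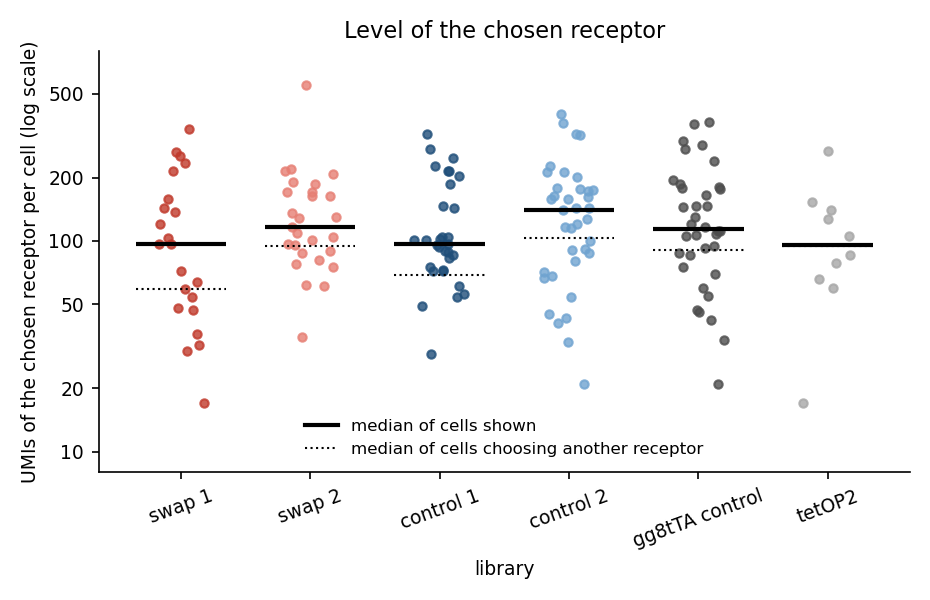
UMIs of the chosen receptor (y axis, log scale) in each mature OSN that chose *Olfr161* to *Olfr209*, by library (x axis), with the median of these cells as a solid line and the median of cells choosing another receptor as a dotted line. Solid lines run from 96 UMIs in tetOP2 to 141 in control replicate 2, and the cells of swap and control libraries spread over the same range.

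Receptors also differed in level among themselves. Per 10000 UMIs of a cell, with each transcript counted once and no division by gene length, *Olfr166* had a median of 199.95 UMIs over 13 cells (range 92.2 to 314). Its library medians were 199 in swap replicate 1, 183 and 279 in control replicates 1 and 2, 250 in gg8tTA control and 185 in tetOP2. *Olfr198* stood lowest of the 14 members with at least 5 cells, at 45.1 over 6 cells (17.6 to 74.1), and all its cells lay below all cells of *Olfr166*. *Olfr206* had 64.5 (44.96 to 80.5, 11 cells), and these too lay below every cell of *Olfr166*. *Olfr164* at 83.3 (41.4 to 109, 17 cells), *Olfr201* at 93.5 (31.0 to 189, 16 cells) and *Olfr169* at 87.5 (59.6 to 151, 8 cells) overlapped each other. *Olfr167* reached 104 (86.5 to 197, 7 cells) and *Olfr204* 104 (49.3 to 178, 8 cells).

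The zone of the cells was read from marker genes other than ORs. A dorsoventral score was the mean standardized expression of *Ncam2*, *Nrp2*, *Nfia*, *Nfib* and *Nfix*, which are higher in ventral OSNs, minus that of *Nqo1*, *Acsm4*, *Robo2* and *Sema3f*, which are higher in dorsal OSNs. Of the 163 member cells, 136 had a score above 0 (83.4%), as had 55.7% of the 4840 cells choosing another receptor. *Nqo1*, the quinone reductase that marks the dorsal zone, had UMIs in 27 of them (16.6%) and in 40.4% of the other cells. *Nfix*, a nuclear factor I gene, had UMIs in 153 (93.9%) and in 73.2% of the other cells.

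Members spread along this axis in a receptor-specific way. Over cells of the control and gg8tTA control libraries, 8 members had at least 5 cells, and they were ranked among the 184 receptors that did. *Olfr164* was the most dorsal of them, with a mean score of -0.0560 ± 0.382 (SD, 8 cells), the 57th from the dorsal end. *Olfr201* followed at 0.432 ± 0.484 (6 cells), *Olfr180* at 0.726 ± 0.267 (5 cells), *Olfr206* at 0.765 ± 0.317 (9 cells) and *Olfr170* at 0.859 ± 0.570 (5 cells). *Olfr166* at 0.922 ± 0.586 (10 cells), *Olfr167* at 1.13 ± 0.691 (7 cells) and *Olfr169* at 1.39 ± 0.383 (6 cells) were the most ventral. This order depends on the libraries, since gg8tTA control cells scored lower in general and gave 4 cells of *Olfr167*, 4 of *Olfr166* and 0 of *Olfr169*. In control cells alone *Olfr167* averaged 1.515 (3 cells), *Olfr169* 1.39 (6 cells), *Olfr166* 1.27 (6 cells) and *Olfr170* 0.659 (2 cells). The cells of neighbours in this order overlapped in score, and *Olfr169* was the 171st of the 184. Of the 8 members, 2 lay above the upper quartile of the receptors' scores and 0 below the lower quartile.

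The 3 members that swap cells did not choose in this list, *Olfr167*, *Olfr169* and *Olfr170*, had scores of 0.859 or more. So had *Olfr166*, at 0.922, which 2 swap cells chose. *Olfr164* and *Olfr201*, with more choosing cells in swap, had the 2 lowest. Members chosen in swap only could not enter this list, which needed control or gg8tTA control cells. Of these 4, *Olfr165* (1.34, 1 cell), *Olfr205* (1.24, 1 cell) and *Olfr209* (0.922, 3 cells) scored high in swap. The other, *Olfr178*, scored -0.354 (1 cell). *Olfr206* at 0.765 had fewer cells in swap and *Olfr204* more, although the 6 swap cells of *Olfr204* averaged 1.2, above its 2 control cells at 0.682. With so few receptors, this is a description without a test. Cells choosing *Olfr164* averaged -0.0073 in swap and -0.0873 in control, and those choosing *Olfr201* 0.555 and 0.510.

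**Figure D4:**
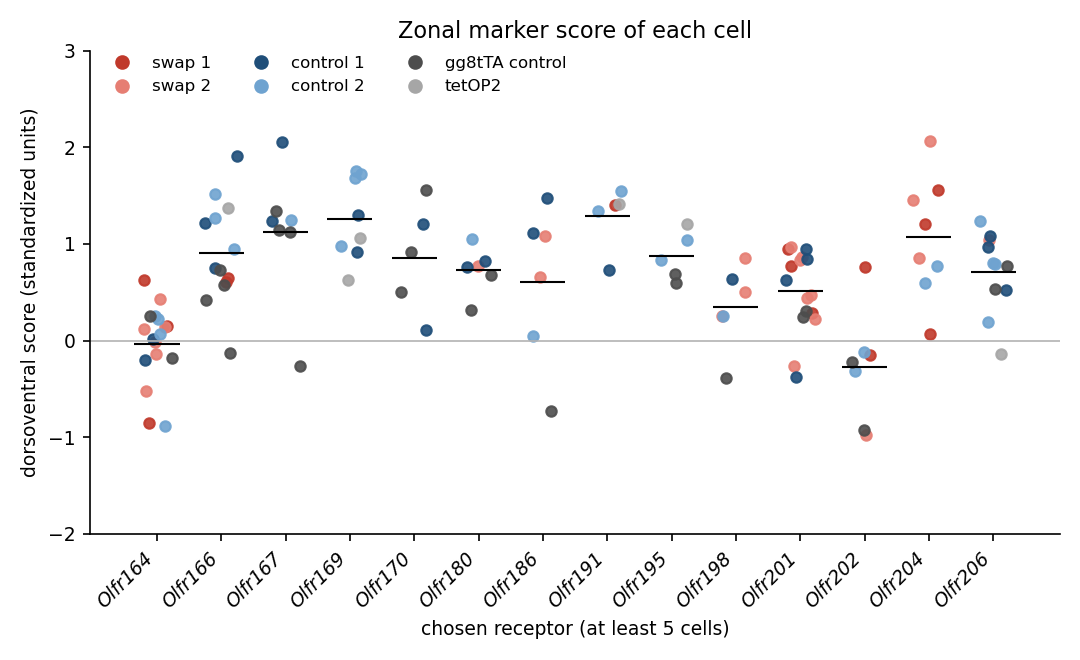
Dorsoventral score (y axis, standardized units, higher is more ventral) of each mature OSN that chose a member with at least 5 cells (x axis, in order along chromosome 16), coloured by library, with the mean of all its cells as a black line. *Olfr164* centres near 0 and *Olfr202* below it, whereas *Olfr167*, *Olfr169*, *Olfr191* and *Olfr204* lie above 1 on average.

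Between genotypes the mean score of all member cells was 0.780 and 0.471 in swap replicates 1 and 2 and 0.914 and 0.604 in control replicates 1 and 2. The difference of the means was -0.134 (two-sided exact permutation test, p = 0.667), and it turned to 0.0209 without swap replicate 2 and to 0.0211 without control replicate 1. In cells choosing any other receptor the scores were lower in each library, at -0.120 and -0.119 in swap and 0.0701 and 0.126 in control. The gg8tTA control library had 0.438 for member and -0.224 for other cells, and tetOP2 0.919 and 0.147.

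Cells choosing a member were then compared with cells choosing another receptor inside each swap and control library, over genes other than ORs in an edgeR fit blocked by library. Of 11863 genes tested, 26 were called higher (0.219%) and 114 lower (0.961%) in member cells. Of the called genes, 21 of the 26 and 88 of the 114 had their direction in all 4 libraries, and 16 and 39 in all 6 libraries. Among the 9 zonal markers, *Ncam2* was called higher and *Nqo1*, *Acsm4* and *Sema3f* lower. *Nqo1* was at 95.0 and 116 CPM in member cells of swap replicates 1 and 2 and 54.9 and 146 CPM in those of control replicates 1 and 2, against 528, 680, 558 and 523 CPM in other cells of the same libraries, which edgeR put at a log2 difference of -2.46 with a standard error of 0.10 (adjusted p = 1.9e-70).

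*Acsm4*, an acyl-CoA synthetase gene of dorsal OSNs, was lower by a log2 difference of -2.28 with a standard error of 0.15 (adjusted p = 8.0e-39 in edgeR). *Ncam2*, the adhesion molecule of ventral OSN axons, had 0.68 (standard error 0.12, adjusted p = 8.4e-06). *Nfix* passed the adjusted p at 3.4e-06 but not the fold threshold, at 0.46. *Sema3f*, a secreted axon guidance cue, had -1.77 (adjusted p = 0.0408 from edgeR) and lost its call whichever library was left out. *Robo2* had -0.46 (adjusted p = 0.0903), *Nrp2* 0.26, *Nfia* -0.32 and *Nfib* 0.00, and these did not pass. The maturity genes of the gate passed the adjusted p in edgeR but not the fold threshold. *Gap43* was higher in member cells by 0.50 (adjusted p = 4.5e-05 in edgeR, 0.277 in DESeq2). *Omp* was higher by 0.18 (adjusted p = 0.0312 in edgeR, 0.769 in DESeq2).

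The genes with the smallest adjusted p after the zonal markers extended both lists. *Cd55*, which protects cells from complement, was at 0 to 5.84 CPM in member cells and 72.9 to 190 CPM in other cells of the swap and control libraries (log2 difference -5.36, standard error 0.29). *Avp*, the vasopressin gene, had a log2 fold change of -7.13, with 3.96 CPM in member cells of swap replicate 1 and 0 in the other 3 libraries. This value rested on few cells, since 116 of 3634 other cells had any *Avp* UMI (3.19%) and 1 of 117 member cells. *Tppp3*, a tubulin-binding protein gene, had -3.63. Higher in member cells were *Mslnl*, a mesothelin-like gene (0.91, standard error 0.08), *Glo1*, the glyoxalase that detoxifies methylglyoxal (0.86, standard error 0.08), and *Nrp1*, a semaphorin receptor of axon sorting (1.03, standard error 0.11). *Cpn1*, a carboxypeptidase subunit gene, had 1.23 and *Adam28*, a membrane metalloprotease gene, 0.73. All 5 were higher in member cells in all 6 libraries. DESeq2 called 48 genes in the same comparison, 36 of them among the 140.

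**Figure D5:**
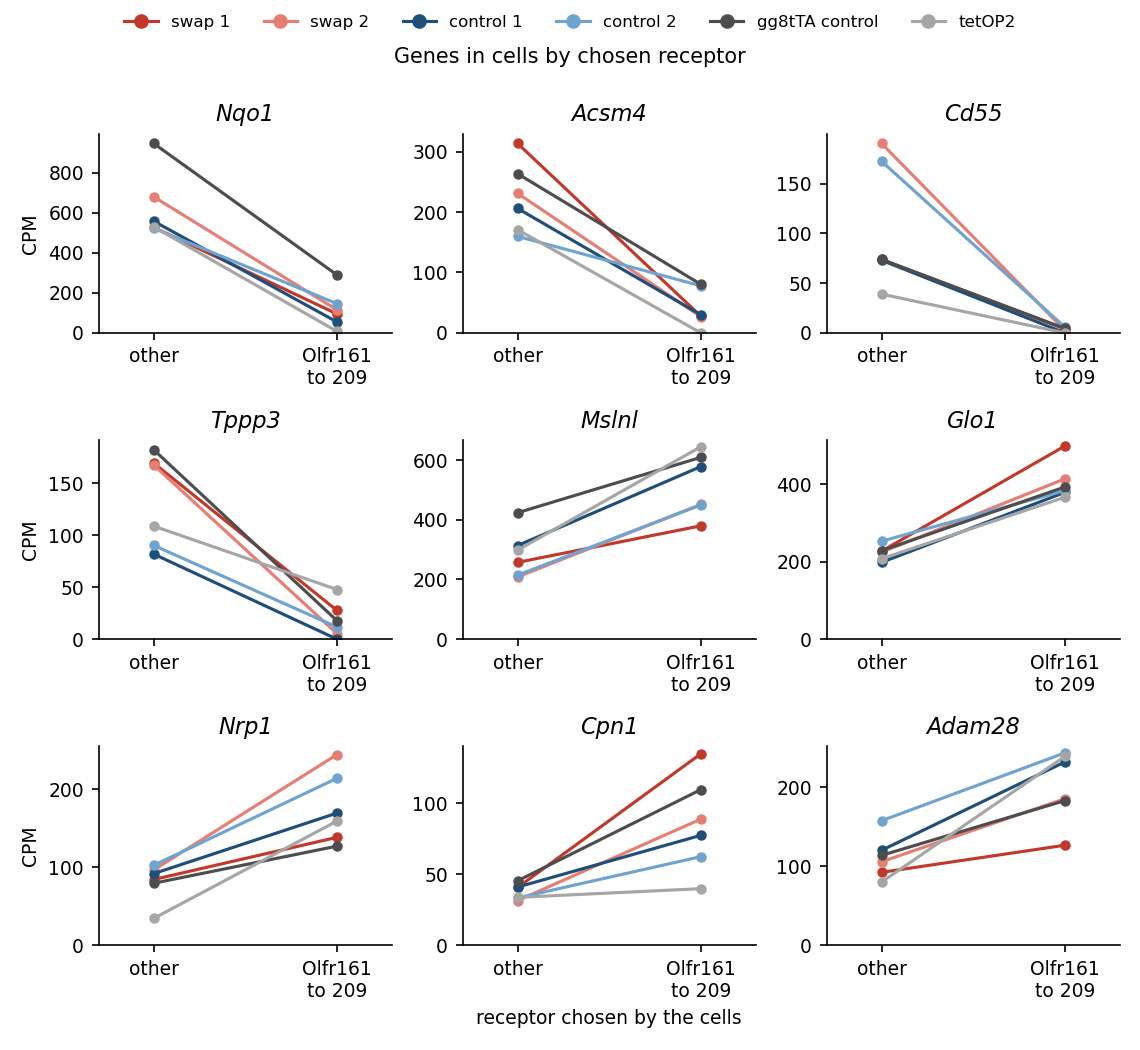
Level of 9 genes (y axis, CPM of all UMIs outside OR genes) in mature OSNs that chose another receptor (left) or *Olfr161* to *Olfr209* (right), with 1 line per library. The first 4 genes are lower and the last 5 higher on the right in each of the 6 libraries, and *Nqo1* goes from 528 to 95.0 CPM in swap replicate 1.

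Genes of other cell types were part of the lower list. It held 3 of the 4 sustentacular markers, and the summed sustentacular marker level was 149, 2176, 29.6 and 1731 CPM in member cells of swap replicates 1 and 2 and control replicates 1 and 2, against 1848, 2454, 56.9 and 2413 CPM in other cells. Its part in the lower list was not tested. Of the 23 genes of a list for OR expression and signalling, 0 were called in either direction. *Ano2*, *Gng13*, *Stoml3* and *Ric8b*, all of the odorant transduction machinery or its supply, passed the adjusted p below the fold threshold, with log2 fold changes of 0.38, 0.25, 0.53 and 0.25. *Stoml3* also passed it in DESeq2 (adjusted p = 0.00521) and with any single library left out. *Ano2*, *Gng13* and *Ric8b* lost it in DESeq2 (adjusted p = 0.246, 0.225 and 0.507) and with some library left out. The list's median was 0.0978 against -0.0320 over all genes. In the swap against control fit 0 of the 23 were called, and 0 had an unadjusted p below 0.05.

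The gg8-tTA libraries, of another line, differed from each other in the share of member cells. It was 6.01% in the gg8tTA control library (36 of 599 cells, exact interval 4.24% to 8.22%) and 1.53% in tetOP2 (10 of 653, 0.737% to 2.80%), whose intervals did not overlap. Each is 1 library, so the difference has no replicate check. The tetOP2 transgene expresses *Olfr17*, which is no member, and cells choosing it count among the 653. The paper reports that most neurons of these mice chose a zone-2 OR. The difference in share cannot be told apart from this. In the gg8tTA control library 20 of the 38 members were chosen (52.6%, against 36.0% of other receptors), and in tetOP2 9 were (23.7%, against 19.5%). *Olfr181* was chosen by 3 mature OSNs of the gg8tTA control library and by no mature OSN elsewhere, and *Olfr169* by 2 cells of tetOP2 and 0 of the gg8tTA control.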

How the data were processed

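Droplet single-cell RNA-seq was made from papain-dissociated MOE with the 10X Genomics Chromium v3 kit. The deposited files hold raw UMI counts per gene and cell, which the authors made with Cell Ranger with introns included (version 3.1.0 in the headers of the swap and control files, mm10 in the submitters' processing notes). A barcode was kept from 1000 UMIs and 500 detected genes upwards, and predicted doublets, 0.8% per 1000 cells, were removed with a nearest-neighbour score on simulated doublets. The driver of the Cre allele is not reported here. Libraries were grouped by their labels, and 57.5% to 100% of barcodes were kept, with medians of 9991 to 11543 UMIs.

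UMIs summed per library over mature OSNs, and the numbers of cells choosing each OR, were compared between 2 swap and 2 control libraries with edgeR 4.0.16 (quasi-likelihood test, TMM for UMIs, filterByExpr, Benjamini-Hochberg adjustment) in R 4.3.3. The threshold for a call was 0.05 for adjusted p and, for UMIs, also 0.58 for the size of the log2 fold change. filterByExpr left 1 OR in the test of cell numbers, so it was also run without the filter. Member and other cells were compared within libraries in the same way. Single values were compared with exact permutation tests (Python 3.11.15, scipy 1.17.1), and DESeq2 1.42.0 was an alternative. On simulated data with 200 changed genes, the swap against control test recovered 155 (13562 genes, 10 false calls) and the member cell test 152 (11906 genes, 8 false calls). The simulated swap against control counts had the same fixed spread between libraries for every gene, whereas receptor sums rest on few cells. That recovery thus cannot be carried over to receptors. In the deposited data the swap against control test called 0 of 13372 genes.

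The members and gene lists were chosen with earlier results of these data known. Named were the 12 members with most cells, the members with the 3 largest differences of share in each direction and the highest and lowest scores, *Omp*, *Gap43*, *Cbx1*, *Cbx5*, the zonal markers, the 5 higher and 5 lower genes leading by adjusted p and called genes of the OR expression list. The 5 members called by DESeq2, the loci, families and *S100a5* were chosen after their values were seen. Other alternatives changed the *Omp* gate, the UMIs that count as a choice, the doublets, the filter, the scaling and the libraries.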

Additional observations from a re-analysis of the deposited data

Results flagged for a closer look

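The contrast of member cells with other cells was called different between genotypes for 39 of 11863 genes. This came from an interaction fit of edgeR that was added after the data were seen. At an unadjusted p below 0.05 in that fit stood 564 of the 11863 genes, no more than this threshold passes where nothing differs. *Acsm4* had an interaction of -1.62 on the log2 scale (swap minus control, standard error 0.37, adjusted p = 0.00684 from edgeR). In member cells it was at 27.7 and 26.9 CPM in swap replicates 1 and 2 and 29.9 and 77.9 CPM in control replicates 1 and 2, and in other cells at 314, 231, 206 and 160 CPM. The adjusted p was 0.729 without swap replicate 1, 0.114 without swap replicate 2 and 1 without control replicate 2, so the call rested on these libraries.

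*S100a5*, a calcium-binding protein gene of active OSNs, had an interaction of -1.66 (standard error 0.12, adjusted p = 1.6e-41 from edgeR). It was at 3099 and 3972 CPM in member cells of swap replicates 1 and 2 and at 12060 and 20430 CPM in those of control replicates 1 and 2, without overlap. In other cells it was at 11770, 9145, 13390 and 16070 CPM in the same order. How many genes separate this way in member cells was not counted. Single cells spread widely, up to 244, 203, 593 and 666 UMIs per 10000 from 0 in the member cells of each library. Their medians were 4.79, 19.0, 74.5 and 107 UMIs per 10000 in member cells and 21.2, 13.4, 30.1 and 68.1 in other cells. In swap replicate 2 and in control replicate 1 the medians and the summed levels thus lay in opposite directions. Without swap replicate 1 it was -1.24 with an adjusted p of 0.287, and without any other library it stayed past the threshold. No group was large enough for a search for single libraries that stand apart.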

How the results depend on the processing

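The count of members called in summed UMIs was 0 in the other alternatives, 5 by DESeq2, and 0 to 11 with a library left out, 8 without control replicate 1 and 11 without control replicate 2, when 267 and 770 genes were called in all. Genes called in member cells numbered 140, against 48 by DESeq2, 105 to 162 with a library left out, and 172 over the control and gg8tTA control libraries, 84 of them shared. The difference in member share of -0.139 points turned to 0.243 with at least 3 UMIs of *Omp* and ran from -0.357 to 0.0793 with a library left out. The difference in level of -2.25 UMIs was 0.0 with doublets kept and ran from -5.25 to 0.75 (0.75 without control replicate 2). The score difference of -0.134 ran from -0.288 to 0.0211 (0.0209 without swap replicate 2). The cause of these changes was not tested. In cell numbers 0 members were called in all 12 alternatives run. Only DESeq2 and the fit without a filter tested members, 30 each, and the rest could call none. The replicate numbers gave a correlation of 0.414 between the deviations of same-numbered libraries, but with 2 pairs and no label of a shared batch they are only numbers. With the replicate block 0 members were called in summed UMIs, and no member was tested in cell numbers. The differences were -0.139 points, -2.25 UMIs and -0.134. For the score difference of -0.134 the exact sign-flip test gave p = 0.5, the smallest that 2 pairs allow. Few choosing cells per receptor limit all results on single receptors.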
